A study of Homo sapiens with 2 samples.

Results

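Antisense long noncoding RNAs are transcripts read from the strand opposite a gene, and their symbols join the name of that sense gene to AS and a number. They were followed here in KG1 cells, a human line from an acute myeloid leukaemia that resembles early blood progenitors, after siRNA against T-bet. Members were selected on measured signal: a gene was taken when its symbol ends in AS and 1 digit and at least 1 of its probe sets exceeded the array's median (control probe sets left out) on 1 or both of the 2 arrays. Of 781 such genes with a probe set of their own, 262 were members, or 33.5%, against 62.4% of all 19775 named genes (12346 measured). The signals that chose the members are the signals described below, so the share that passed is a description and supports nothing.

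The siRNA-Tbet group received 1.98 µg of siRNA against T-bet, the transcription factor encoded by TBX21, by electroporation, and the siRNAc group received 1.98 µg of a control siRNA. Both then rested for 5 h and were stimulated with interleukin-18, a cytokine that induces interferon-γ, at 10 ng/ml for 12 h, so neither group shows cells without interleukin-18. Each group is 1 array of total RNA from 1 cell line. No value below therefore has a replicate error or a p-value, no difference could be tested, and the number of arrays limits the precision. In such bulk RNA, fewer cells of a type and less RNA per cell cannot be told apart.

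TBX21 read 1839 after siRNA-Tbet against 3581 after siRNAc, or 51.3% of the control signal. Pairs of signals are given with the siRNA-Tbet array first throughout. All 8 listed markers of KG1 and early progenitors were measured, among them CD34 (17130 and 15839) and HLA-DRA (27218 and 24432). The 3 epithelial markers EPCAM, KRT19 and CDH1 were all below the array medians, as were CD14 and CD163 of monocytes and ALAS2 of erythroid cells. Other markers of these types were measured: VCAN of monocytes (417 and 412), CD79A (528 and 530) and MS4A1 (88.3 and 183) of B cells, and HBB of erythroid cells (227 and 152). Their part in the results was not tested. The arrays' medians were 144 with siRNA-Tbet and 146 with siRNAc, and their trimmed means were both 1000, in arbitrary units of the MAS5 algorithm. Which strand each probe set reads was not checked here.

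As background, an antisense RNA can share a bidirectional promoter with its sense gene, start inside that gene, or run into it from beyond its end. Some act on the sense gene in cis, for instance by recruiting chromatin modifiers, by transcriptional interference or by pairing with its mRNA, and some act in trans as scaffolds or as sponges for microRNAs. For most, no function is established. In lymphocytes, the antisense RNA of the interferon-γ locus, IFNG-AS1, is a known companion of T-bet-driven IFNG transcription. No probe set named it alone, so it was not analysed here.

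The antisense RNAs as a group had nearly the same signals on both arrays. Signals below the higher of the 2 medians (146) were raised to that floor, and the log2 ratio of siRNA-Tbet over siRNAc was taken on the probe set with the highest mean signal. Where 1 of the signals lies below the floor, the ratio is a bound, nearer to 0 than the measured signals give. The median log2 ratio of the 262 members was -0.03, with quartiles of -0.24 and 0.18, and that of all measured genes was -0.02. Of the members, 114 were higher, 145 were lower and 3 were at the floor on both arrays. The share of members that were lower was 55.3%, against 53.3% of all measured genes.

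With a difference of at least 1.5-fold used as the mark of size, 10 members were higher and 8 were lower with siRNA-Tbet. That is 3.82% and 3.05% of the members, while 2.03% of all measured genes were at least 1.5-fold higher and 2.92% were at least 1.5-fold lower. Dim probe sets vary more, and most antisense RNAs were dim. Among the 224 members with a mean signal up to the arrays' 75th percentile (914), 9 were higher (4.02%) and 8 were lower (3.57%). The share of all measured genes in that signal range was 4.47% higher and 6.29% lower. Among the 38 brighter members, 1 was higher and 0 were lower, against 0.405% and 0.662% of all genes in that range. With the floor at 146, the counts of antisense RNAs within each signal range thus lay near or below the background, apart from the single bright member THAP9-AS1.

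How far the ratios of 1 gene's probe sets lay apart gave a measure of technical noise, computed over all genes with several probe sets. It was 0.40 on the log2 scale at a median signal of 248 and 0.18 at 17782, and it leaves out variation between cultures and arrays. Log2 ratios larger than 1 such spread were found for 24.0% of the members and 24.0% of all measured genes. Ratios larger than 2 spreads were found for 4.20% and 3.81%. Relative to that spread, the floored ratios of the antisense RNAs scattered about as widely as those of all measured genes. The floor draws ratios towards 0, and fewer members (70.6%) than measured genes (89.5%) lay above it on both arrays. Without scaling by the spread, the members' quartiles (-0.24 and 0.18) were wider than those of all measured genes (-0.16 and 0.11).

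Other long noncoding RNAs were read in the same way. Of the 176 measured LINC genes, which are named as intergenic noncoding RNAs, 15 were at least 1.5-fold higher (8.52%) and 10 were lower (5.68%), with a median log2 ratio of -0.07. Of the 85 measured divergent transcripts, whose symbols end in DT, 4 were higher (4.71%) and 5 were lower (5.88%), with a median log2 ratio of 0.0041. The difference between these classes and the antisense RNAs was not tested.

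**Figure D1:**
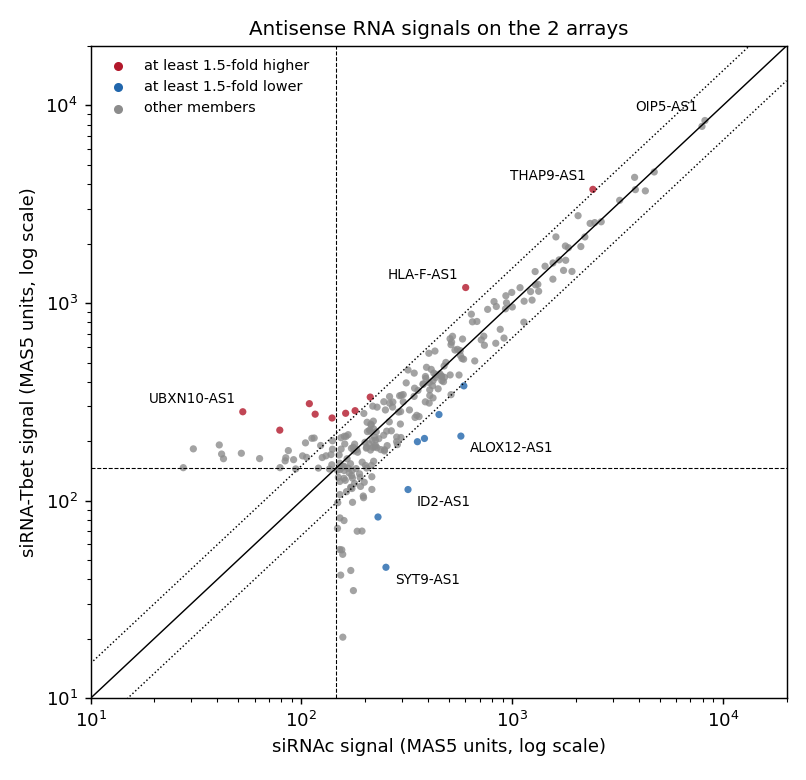
Signals of the 262 antisense RNAs on the siRNAc array (x axis) and the siRNA-Tbet array (y axis), in MAS5 units on log scales. Each point is 1 RNA read by its brightest measured probe set, solid and dotted lines mark equal signals and 1.5-fold differences, and dashed lines mark the floor of 146. The 10 red points are at least 1.5-fold higher and the 8 blue points at least 1.5-fold lower after flooring, and most lie at low signals.

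The promoters of 5 antisense RNAs are printed, chosen after their values were seen. HLA-F-AS1 and THAP9-AS1 have the highest signals among the 10 members at least 1.5-fold higher with siRNA-Tbet, GATA2-AS1 is another of the 10, opposite a blood progenitor gene, and ALOX12-AS1 and ID2-AS1 have the lowest ratios. The sequences are from RefSeq (GRCh38.p14) and run 5′ to 3′ on the strand of the antisense RNA. Lower case marks the 250 bases before the annotated start and capitals the first 50 bases of the RNA. HLA-F-AS1 lies at chr6:29749000-29749299 on the minus strand, THAP9-AS1 at chr4:82900867-82901166 on the minus strand, and GATA2-AS1 at chr3:128488953-128489252 on the plus strand. ID2-AS1 lies at chr2:8681814-8682113 on the minus strand and ALOX12-AS1 at chr17:7012285-7012584 on the minus strand.
HLA-F-AS1: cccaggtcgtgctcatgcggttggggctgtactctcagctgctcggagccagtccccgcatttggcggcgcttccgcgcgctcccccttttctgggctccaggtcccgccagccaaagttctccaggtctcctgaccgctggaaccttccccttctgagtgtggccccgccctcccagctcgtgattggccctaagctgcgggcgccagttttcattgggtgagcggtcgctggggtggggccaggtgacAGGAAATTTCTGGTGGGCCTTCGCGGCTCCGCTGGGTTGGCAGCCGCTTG
THAP9-AS1: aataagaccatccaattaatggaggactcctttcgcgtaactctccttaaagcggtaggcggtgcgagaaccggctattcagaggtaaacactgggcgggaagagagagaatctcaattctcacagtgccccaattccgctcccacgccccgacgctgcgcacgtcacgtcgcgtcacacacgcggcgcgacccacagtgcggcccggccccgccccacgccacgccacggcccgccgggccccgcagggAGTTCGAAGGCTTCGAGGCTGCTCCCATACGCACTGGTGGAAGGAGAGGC
GATA2-AS1: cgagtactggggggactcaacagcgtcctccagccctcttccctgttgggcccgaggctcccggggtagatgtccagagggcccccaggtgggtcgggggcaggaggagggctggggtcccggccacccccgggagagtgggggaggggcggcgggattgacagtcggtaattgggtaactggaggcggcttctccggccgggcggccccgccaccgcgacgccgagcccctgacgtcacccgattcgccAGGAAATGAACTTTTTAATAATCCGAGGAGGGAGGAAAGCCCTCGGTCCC
ID2-AS1: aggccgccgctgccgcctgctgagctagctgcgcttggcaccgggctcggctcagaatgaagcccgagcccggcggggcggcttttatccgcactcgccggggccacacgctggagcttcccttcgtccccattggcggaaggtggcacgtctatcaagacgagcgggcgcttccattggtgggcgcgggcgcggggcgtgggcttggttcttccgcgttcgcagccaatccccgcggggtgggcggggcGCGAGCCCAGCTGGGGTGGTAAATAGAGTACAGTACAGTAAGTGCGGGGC
ALOX12-AS1: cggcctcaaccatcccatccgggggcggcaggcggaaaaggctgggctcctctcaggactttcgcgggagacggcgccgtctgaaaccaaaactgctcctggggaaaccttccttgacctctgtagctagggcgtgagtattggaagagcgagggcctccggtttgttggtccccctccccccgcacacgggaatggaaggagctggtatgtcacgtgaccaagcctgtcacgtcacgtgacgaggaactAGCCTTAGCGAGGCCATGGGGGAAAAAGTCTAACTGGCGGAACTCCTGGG

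These windows differ in how they face the sense gene. The start of THAP9-AS1 lies 181 bases inside THAP9, so both genes overlap at their starts. The start of ID2-AS1 lies 193 bases upstream of the ID2 start, so ID2-AS1 and ID2 are read away from each other. GATA2-AS1 starts 3998 bases downstream of the tabulated GATA2 start, inside the gene. HLA-F-AS1 starts 25615 bases downstream of the HLA-F start, beyond the end of that gene, and runs across it. The starts of ALOX12-AS1 and ALOX12 are 16285 bases apart.

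The windows were rich in G and C, with 66.0% for HLA-F-AS1, 63.3% for THAP9-AS1, 68.3% for GATA2-AS1, 69.0% for ID2-AS1 and 61.0% for ALOX12-AS1. Over the 205 members in the table the median was 63.3%, with a median of 21 CpG dinucleotides, against 58.3% and 14 over all 27305 promoters. The 167 measured sense genes in the table had 67.7% and 28.

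A search of both strands for the T-box core GGTGTGA, the letters that T-bet and its relatives bind, found it in 8 of the 205 members' windows (3.90%) and in 3.43% of all promoters. The STAT element TTCNNNGAA was in 15 members (7.32%) and 7.88% of all promoters. A match to a 10-base NF-κB pattern, whose letters are not given here, was in 32 members (15.6%) and 10.8% of all promoters. NF-κB is used by interleukin-18 signalling. Of the 167 sense genes' windows, also rich in G and C, 10.8% held such a match. Matches of the 3 motifs were counted separately, whether or not they overlapped. Of the 7 members in the table that were at least 1.5-fold higher, 0 held any of the 3, and of the 7 that were lower, 2 held an NF-κB match. One is ID2-AS1, where the match begins 138 bases before the start, and the other is STPG3-AS1. A match is a description of letters in this window only.

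Of the 10 members at least 1.5-fold higher, HLA-F-AS1 and THAP9-AS1 were read farthest above the floor. HLA-F-AS1 read 1198 after siRNA-Tbet against 602 after siRNAc, a 1.99-fold difference (log2 ratio 0.99, technical spread 0.27 at that signal). Its other probe set was below the medians, at 2.1 and 30. HLA-F, its sense gene, encodes a non-classical MHC class I molecule. The HLA-F probe set without the cross-hybridising suffix was dim, at 141 and 156 (log2 ratio -0.09). The 2 bright HLA-F probe sets, which can also read other class I genes, had 15961 and 15118 (0.08) and 6941 and 7680 (-0.15). The antisense RNA thus stood about 2-fold apart between the arrays while the probe sets of its sense gene had ratios on both sides of 0.

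THAP9-AS1 read 3760 after siRNA-Tbet against 2414 after siRNAc, which is 1.56-fold higher (log2 ratio 0.64, spread 0.21), on its single probe set, whose suffix marks that it can read several transcripts. It was the only member above the 75th percentile to differ by 1.5-fold, and it ranked 193 from the highest among all 12346 measured genes. THAP9, which encodes a protein related to a transposase, had 192 and 231, a log2 ratio of -0.27 at a spread of 0.40.

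GATA2-AS1 read 285 after siRNA-Tbet against 180 after siRNAc, a 1.59-fold difference (log2 ratio 0.67). GATA2 itself, a transcription factor of blood progenitors, had 15712 and 11483 on its brightest probe set (log2 ratio 0.45), 853 and 357 on the second (1.26) and 2839 and 2514 on the third (0.18). Both RNAs of the locus were higher with siRNA-Tbet, and the sense ratio was the largest in size among the 15 measured sense genes of the members that differed 1.5-fold.

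The other higher members were dim on the control array. PTOV1-AS2 had 310 with siRNA-Tbet and 109 with siRNAc, at least 2.11-fold higher, the only member whose floored ratio passed 2-fold. UBXN10-AS1 had 282 and 52.7, at least 1.92-fold higher, and ZBED3-AS1 had 274 and 116, at least 1.87-fold. FOXD2-AS1 had 262 and 140, at least 1.79-fold higher, and AP1G2-AS1 had 227 and 79.0, at least 1.55-fold. In these 5 the control signal lay at the floor, so the fold is a lower bound against the floor. GLYCTK-AS1 (277 and 162, 1.71-fold) and ZNF143-AS1 (334 and 212, 1.58-fold) were above the floor on both arrays.

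On the probe sets used, the sense genes of these RNAs gave no 1.5-fold difference where they were measured. PTOV1, an adaptor protein found in prostate tumours, had a log2 ratio of -0.08, and UBXN10, a UBX domain protein of cilia, had -0.25. ZBED3, a zinc finger protein, had 0.03, but 0.65 on its second probe set (1164 and 740), which passes 1.5-fold. AP1G2, a subunit of a clathrin adaptor, had -0.08, and GLYCTK, glycerate kinase, had 0.0019. ZNF143, a zinc finger factor bound at many promoters, had -0.14. FOXD2, a forkhead factor, was on the array and not above its medians.

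The lower members were led by ALOX12-AS1. It read 212 after siRNA-Tbet against 571 after siRNAc, which is 2.69-fold lower (log2 ratio -1.43, spread 0.40). This was the lowest floored log2 ratio of all 12346 measured genes. A second probe set of ALOX12-AS1 was below the medians, at 76.9 and 85.4. ALOX12, which encodes arachidonate 12-lipoxygenase, was on the array and not above its medians.

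ID2-AS1 read 114 after siRNA-Tbet against 321 after siRNAc, at least 2.19-fold lower. Its head-to-head partner ID2, an inhibitor of basic helix-loop-helix factors with a known part in natural killer cell development, had 3905 and 4157 (log2 ratio -0.09) and, on a second probe set, 622 and 806 (-0.37). ID2-AS1 and ALOX12-AS1 were the 2 members whose floored ratios passed 2-fold on the lower side.

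DIP2C-AS2 had 206 and 384, a 1.86-fold difference, and LIMD1-AS1 had 199 and 355, a 1.79-fold difference. PRKAG2-AS1 had 273 and 449 (1.65-fold lower) and PRKAR1B-AS1 had 381 and 590 (1.55-fold lower). Their sense genes, which encode the LIM domain scaffold LIMD1, a regulatory subunit of AMP-activated kinase (PRKAG2), a regulatory subunit of protein kinase A (PRKAR1B) and DIP2C, had log2 ratios of 0.15, -0.04, -0.27 and 0.16. SYT9-AS1 (46.0 and 252, at least 1.72-fold lower) and STPG3-AS1 (82.7 and 231, at least 1.58-fold) were at the floor with siRNA-Tbet, so these folds too are lower bounds. STPG3 had a log2 ratio of -0.34, and SYT9, a synaptotagmin of vesicle fusion, was not above the medians.

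Of the 18 members that differed 1.5-fold, 15 had a measured sense gene. On the probe set used, 0 of those sense genes differed 1.5-fold. Among all measured sense genes 6.19% differed so, as did 4.95% of all measured genes. A count of 0 among 15 is therefore a description only. On another probe set GATA2 (log2 ratio 1.26) and ZBED3 (0.65) passed 1.5-fold. The sense ratio lay on the same side of 0 as the antisense ratio in 7 of the 15 and on the opposite side in 8. Only 4 of the 18 had another measured probe set. It lay on the same side in 1, AP1G2-AS1 (0.04 on the log2 scale), and on the opposite side in 3: FOXD2-AS1 (-0.36), ZBED3-AS1 (-0.10) and PRKAG2-AS1 (0.02).

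**Figure D2:**
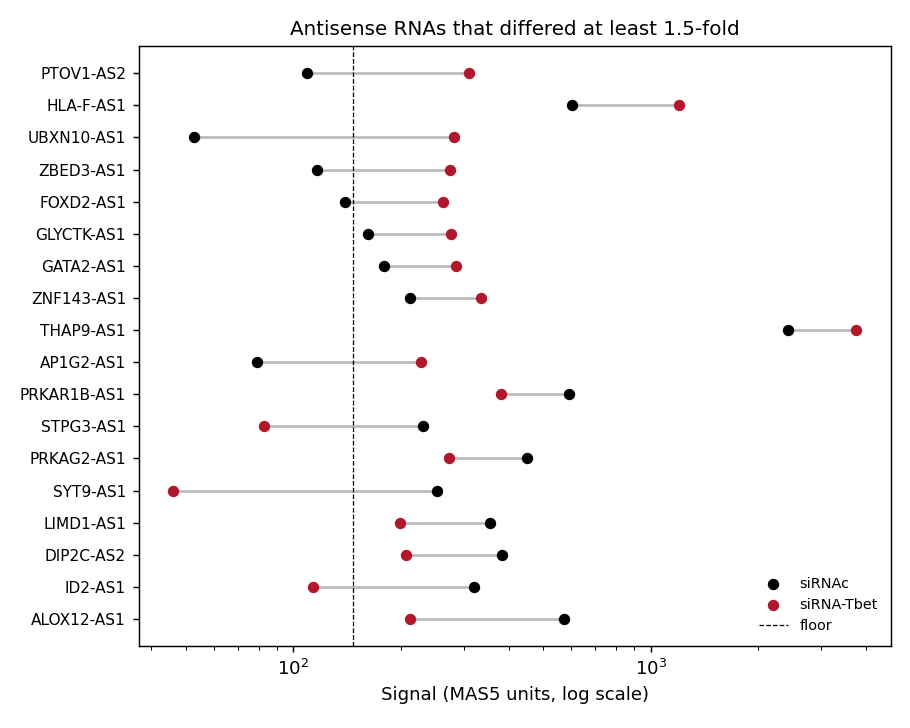
Signals of the 18 antisense RNAs that differed at least 1.5-fold, on the siRNAc array (black) and the siRNA-Tbet array (red), in MAS5 units on a log scale, ordered by floored log2 ratio. The dashed line is the floor of 146. In 8 of the 18, 1 of the 2 signals lies below the floor, and HLA-F-AS1 and THAP9-AS1 lie farthest above it on the siRNA-Tbet array.

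The 10 brightest antisense RNAs differed little, apart from THAP9-AS1. OIP5-AS1, a conserved RNA also called cyrano that pairs with a microRNA, had 8387 with siRNA-Tbet and 8209 with siRNAc (log2 ratio 0.03). FGD5-AS1 had 7835 and 7947 (-0.02), and NNT-AS1, opposite the mitochondrial transhydrogenase gene, had 4605 and 4717 (-0.03). Each probe set has its own response, so brightness chose these members by how well they were read and does not compare amounts of RNA between them.

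WAC-AS1 had 4325 and 3807 (log2 ratio 0.18) on a probe set that can cross-hybridise. CARD8-AS1, opposite the gene of an inflammasome sensor, had 3695 and 4281 (-0.21), and OTUD6B-AS1 had 3309 and 3234 (0.03). TMEM147-AS1 had 2577 and 2643 (-0.04). The 9 bright members other than THAP9-AS1 had log2 ratios between -0.21 and 0.18, and the technical spread at their signals was 0.17 to 0.21.

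Antisense RNAs of immune and blood lineage loci were read through a list of 31 genes. Of the 31, 19 had a probe set of their own. The members among them numbered 11. Of these, 5 were higher and 6 were lower, with a median log2 ratio of -0.03, the same as the median of all members to 2 decimals, and 2 were at least 1.5-fold higher (HLA-F-AS1 and GATA2-AS1) and 0 lower, where 2.03% and 2.92% of all measured genes were. A count of 2 among 11 is a description only. PSMB8-AS1, opposite an immunoproteasome subunit gene that interferon induces, had 3748 and 3839 (log2 ratio -0.03) and 0.55 on its second probe set (265 and 181). PSMB8 had 19366 and 18652 (0.05).

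TRG-AS1, from the T cell receptor gamma locus, had 1932 with siRNA-Tbet and 2116 with siRNAc (log2 ratio -0.13). ENTPD1-AS1, opposite the gene of the ectonucleotidase CD39, had 2553 and 2464 (0.05), and ZEB1-AS1 had 583 and 550 (0.08). ITGB2-AS1, opposite the gene of the leukocyte integrin β2 chain, had 178 on both arrays (0.0074). TRAF3IP2-AS1, opposite the gene of an interleukin-17 receptor adaptor, had 400 and 472 (-0.24) and -0.05 on a probe set that can cross-hybridise.

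HOXB-AS1 had 331 and 421 (log2 ratio -0.35), with 0.05 on its other probe set. TNFRSF14-AS1 had 202 and 217 (-0.10), with 1.04 on another probe set, which has the cross-hybridising suffix (302 and 105). Among the list genes below the medians on both arrays were GATA3-AS1 (29.4 and 9.7 on its brighter probe set), HOXA-AS2 (117 and 74.4) and IL12A-AS1 (42.6 and 76.6). These signals lie below the floor, so no fold is given for them.

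Agreement between probe sets could be read for 45 members, 34 with 2 measured probe sets and 11 with more. All probe sets lay above 0 in 7 members, all lay below 0 in 10, and 28 had both signs. One-sided agreement was thus found in 37.8% of these members, against 41.1% of the 6155 measured genes with several probe sets. Members carry mostly 2 probe sets and other genes often more, so the shares are not matched for number.

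Of the 7 that were higher on every measured probe set, PSMA3-AS1 had 3 of 3, at log2 ratios of 0.12, 0.29 and 0.34, with 1943 and 1787 on the brightest. PSMA3, a subunit of the proteasome core, had 29267 and 28482 (0.04). TRIM52-AS1 had 0.31 (803 and 648) and 0.29 (179 and 139). Its sense gene TRIM52, a tripartite motif gene, had 0.49 on its brightest probe set (884 and 630) and -0.38 on the second. GAS6-AS1 had 0.04 on its bright probe set (1905 and 1847) and 1.06 on a dim one (365 and 176). The others were AP1G2-AS1, ASMTL-AS1 (0.16 and 0.75), ATP8B1-AS1 (0.09 and 0.57) and FOXN3-AS1 (0.13 and 0.22).

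Of the 10 that were lower on every measured probe set, NIFK-AS1 had log2 ratios of -0.24 (1321 and 1559) and -0.50 on a dimmer probe set, while NIFK, a nucleolar protein that binds Ki-67, had 0.02 and 0.15. CARD8-AS1 had -0.21 and -0.35, the latter at 910 and 1162. CARD8 had -0.09, 0.08 and 0.0038 on its 3 probe sets. MELTF-AS1 had -0.37 and -0.38 on probe sets with the cross-hybridising suffix, and FAM13A-AS1 had -0.39 and -0.32. MAPT-AS1, EIF1B-AS1, CKMT2-AS1, INTS6-AS1, TMEM147-AS1 and TRAF3IP2-AS1 were the others, with ratios between -0.56 and -0.02.

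The members with most probe sets show how far readings of 1 RNA can lie apart. TPT1-AS1, opposite the gene of a translationally controlled tumour protein, had 5 measured probe sets with log2 ratios from -0.58 to 0.67, 2 above 0 and 3 below. PCBP1-AS1 had 4, from -0.57 to 0.13, and GABPB1-AS1 had 4, from -0.44 to 0.11. PRKCQ-AS1, opposite the gene of protein kinase C theta, had 0.10 on its brightest probe set (1536 and 1432) and -0.52 and -0.58 on the dim ones. The median distance between a member's lowest and highest ratio was 0.39, against 0.31 over all measured genes with several probe sets.

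**Figure D3:**
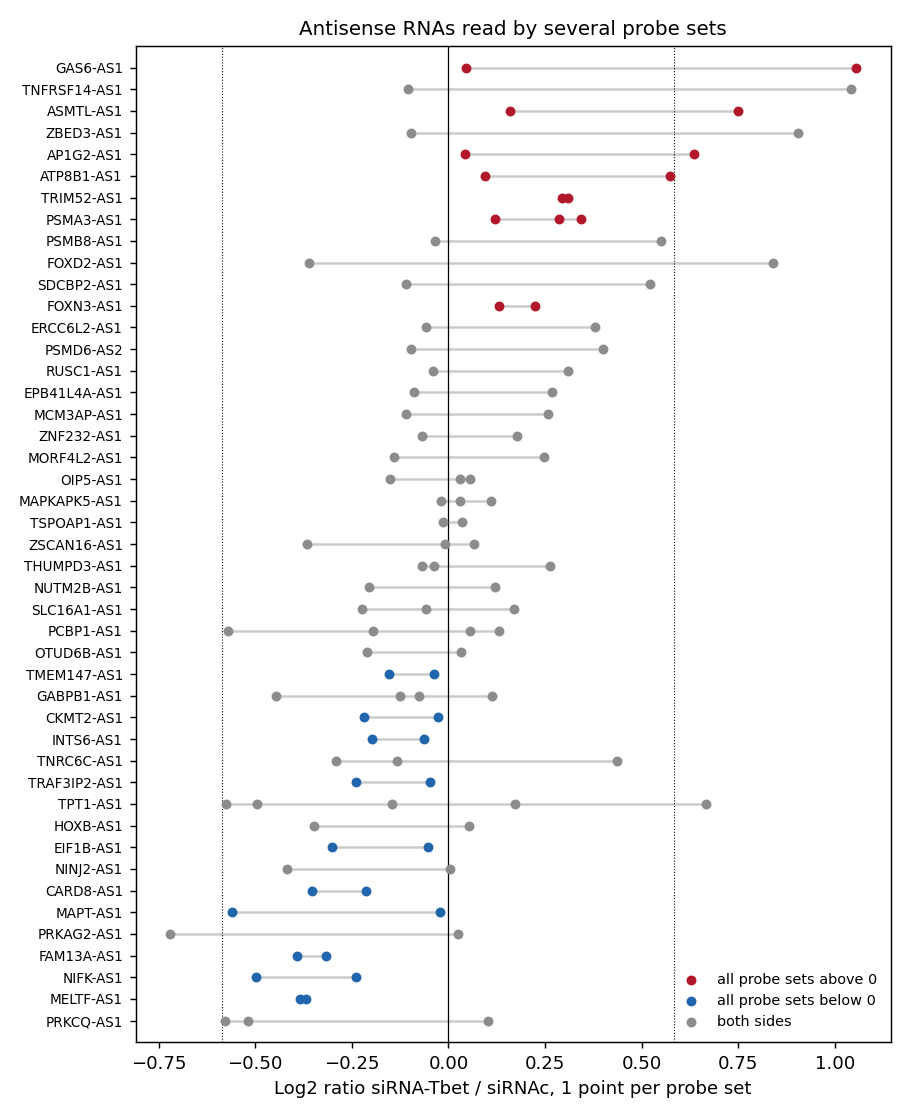
Floored log2 ratios of siRNA-Tbet over siRNAc for each measured probe set of the 45 antisense RNAs read by more than 1, ordered by the median ratio. Dotted lines mark 1.5-fold, red and blue mark RNAs whose probe sets all lie above (7) or below (10) 0, and grey marks the 28 with both signs.

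The comparison with the sense genes covered 194 members. For 46 others the sense gene was on the array and not above the medians, and for 22 the sense symbol had no probe set naming it alone. The 194 sense genes had a median log2 ratio of -0.0094, 4 were at least 1.5-fold higher (2.06%) and 8 were lower (4.12%), against 2.03% and 2.92% of all measured genes. The antisense and sense ratios lay on the same side of 0 in 87 pairs and on opposite sides in 105, and 2 pairs had an antisense ratio of 0. Across the 194 pairs, Pearson's r of the log2 ratios was -0.08 and Spearman's rho was -0.10. This describes pairs of genes on the same 2 arrays, which are not independent replicates.

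By the RefSeq starts and strands, 136 of the pairs could be placed, and 136 of these were on opposite strands. In 65 pairs the genes were head to head, with starts at most 1000 bases apart, in 36 the antisense RNA started inside the sense gene, in 30 it started outside and overlapped it, and in 5 they did not overlap. Same-side ratios were found in 33 of the 65 head-to-head pairs (Pearson's r 0.02) and in 20 of the 36 that start inside (0.09). They were found in 13 of the 30 that overlap from outside (-0.12). They were found in 1 of the 5 pairs without overlap and in 20 of the 58 pairs with no start site in the table (-0.24). The head-to-head pairs, whose starts lie close together, thus had ratios on the same side about as often as on opposite sides. Only 24.0% of all members had a ratio beyond 1 technical spread, so many of these signs lie within noise. The counts of sides therefore cannot show whether paired genes change together. The difference between the arrangements was not tested. Of the 23 pairs in which both genes were above the 75th percentile, 10 were on the same side and 13 on opposite sides.

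The 12 sense genes that differed 1.5-fold were picked for their own ratio, so the size of their partners' ratios is given as a description. SCAMP1, a carrier membrane protein of the secretory pathway, had 7201 with siRNA-Tbet and 3877 with siRNAc, 1.86-fold higher, and was higher on all 6 of its probe sets. Its head-to-head RNA SCAMP1-AS1 had 807 and 680 (log2 ratio 0.25), on the same side and within the technical spread for that signal. TSPOAP1 (244 and 87.3), MTUS2 (245 and 51.0) and DAAM2 (229 and 141) were also at least 1.5-fold higher, each from a control signal at the floor. TSPOAP1-AS1 had 1653 and 1669 (-0.01), MTUS2-AS1 had 114 and 216 and DAAM2-AS1 had 56.3 and 155, both below the floor with siRNA-Tbet, with floored ratios of -0.56 and -0.09 and ratios without a floor of -0.92 and -1.46.

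MMP25, a membrane-anchored matrix metalloproteinase of leukocytes, had 375 and 659, 1.76-fold lower, with 0.34 on its second probe set. MMP25-AS1 had 425 and 463 (log2 ratio -0.12). HECW2, a ubiquitin ligase, had 300 and 515, 1.71-fold lower, and HECW2-AS1 had 420 and 433 (-0.04). ENTPD1 had 178 and 280, 1.57-fold lower, beside the 0.05 of ENTPD1-AS1.

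For SNAI3 (204 and 326, 1.60-fold lower), ZNF687 (276 and 423, 1.53-fold) and NAV2 (142 and 221, at least 1.51-fold) the antisense RNA lay on the other side. SNAI3-AS1 had 276 and 198 (log2 ratio 0.48), ZNF687-AS1 had 301 and 218 (0.46) and NAV2-AS4 had 207 and 115 (0.50, with the control signal at the floor). A1BG (347 and 540, 1.56-fold lower) was lower together with A1BG-AS1 (-0.23). CCDC13 was 1.51-fold lower on its brightest probe set (201 and 303), with log2 ratios of 0.16 and 0.15 on its others. CCDC13-AS1 had 53.5 and 157, a floored ratio of -0.10 and -1.55 without a floor. On the probe sets used, both genes differed 1.5-fold in 0 of the 194 pairs. Of these sense genes 6.19% differed so, and of all measured genes 4.95%, so this count of 0 too is a description only. On another probe set of the sense gene, GATA2 (1.26) and ZBED3 (0.65) passed 1.5-fold beside GATA2-AS1 (0.67) and ZBED3-AS1 (0.90).

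**Figure D4:**
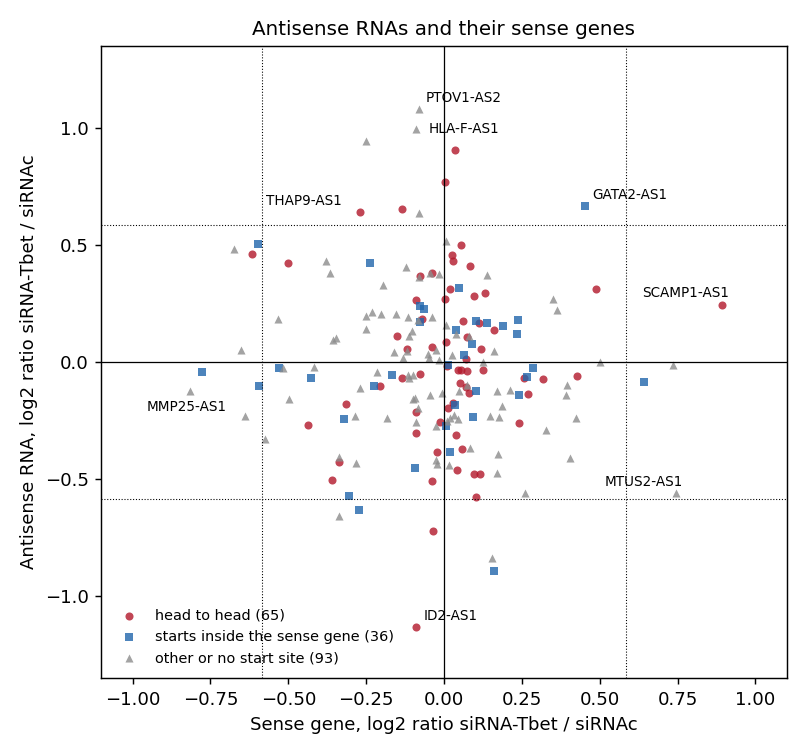
Floored log2 ratios of siRNA-Tbet over siRNAc for 194 sense genes (x axis) and their antisense RNAs (y axis), 1 point per pair. Colours and shapes give the arrangement of the pair in RefSeq, and dotted lines mark 1.5-fold. Points lie on all sides of the origin, with 87 pairs on the same side of 0. With 1 probe set used per gene, the outer corners beyond both dotted lines hold 0 pairs, where 6.19% of the sense genes differed 1.5-fold.

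The edge of the membership was set by small differences in signal. The members nearest above the medians were NOP14-AS1 (144.6 and 135.9), KCNIP2-AS1 (144.7 and 94.0) and BRWD1-AS2 (142.6 and 148.2). The antisense genes nearest below were PIK3CD-AS1 (75.6 and 146.1), GTF2I-AS1 (133.8 and 145.4) and KCNJ5-AS1 (91.4 and 145.3). The 183 members outside the groups named by rule had log2 ratios between -0.57 and 0.52, 81 of them higher, 101 lower and 1 at 0.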

How the data were processed

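Each probe set has 1 linear intensity on each array, as the authors deposited it. The submitters' processing notes name MAS5, which joins perfect-match and mismatch probes into 1 value and leaves dim values noisy. The MAS5 version was not given in the sources used here. Detection calls and scanner files were not used here.

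The platform table gave 1 gene to 41091 probe sets, several to 1801 (22 of them with an antisense gene, left out) and none to 11721. Updating symbols through RefSeq (GRCh38.p14) changed 0 of them. Values below the higher of the arrays' medians were raised to it before log2 ratios were taken. A gene was read by its brightest measured probe set (mean of log2 signals), and one with the suffix _x_at was used only where no other was measured. With 1 array a group no test was run. The self-test on simulated arrays recovered the changes put in. It changed only brighter genes and used noise smaller than the technical spread given above, so it does not cover the dim signals of most members. The members and lists were chosen with earlier results of these data known. Named members were the 10 brightest, those differing 1.5-fold, those with several probe sets, those whose sense gene differed 1.5-fold, those at the threshold and those of the immune list. Alternatives changed the floor, scaling (median, quantile, lowess with span 0.3), probe set choice and fold. Python 3.11.15, pandas 2.3.3 and statsmodels 0.14.6 were used.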

Additional observations from a re-analysis of the deposited data

How the results depend on the processing

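Median scaling, quantile normalization and a floor at each array's own median left the same 10 higher and 8 lower members, and so did removal of a lowess trend. The trend removal gave a median of -0.0040 for the members and 5 lower sense genes. The median over a gene's probe sets gave 7 higher and 7 lower members (2.67% each), all among the main 18. Of all measured genes, 1.73% were higher and 2.33% lower at that setting. The floor moved the counts most. With a floor at the 25th percentile or none, 29 members were at least 1.5-fold higher and 29 lower, or 11.1% of the members each. Of all measured genes, not matched for signal, 4.58% were higher and 5.65% lower. At these settings 8 sense genes were higher. With a floor at the 75th percentile, 1 member was higher (0.38%) and 0 were lower, against 0.21% and 0.36% of all measured genes. There the members' median was 0, 1 sense gene was higher, 0 were lower, and 12 pairs were on the same side of 0. At 2-fold, 1 of the 262 members was higher and 2 were lower, against 30 and 40 of the 12346 measured genes. With a 25% difference as the mark, the members' counts were 35 and 42. The share of all genes at that mark is not given here. On second-brightest probe sets (45 members), 3 were higher (6.67%) and 0 lower, against 3.41% and 3.35% of the 6155 genes read so. There 2 sense genes were lower, the sense median was 0.055, and 9 of 21 pairs were on the same side. Of the 45, 28 had probe sets on both sides of 0. Among the 18 that differed 1.5-fold, FOXD2-AS1 (-0.36), PRKAG2-AS1 (0.025) and ZBED3-AS1 (-0.10) changed sign on second-brightest probe sets. FOXD2-AS1 (-0.36) and PRKAG2-AS1 (0.025) also did so when probe sets with the suffix _x_at or _s_at were left out. At that setting 8 members were higher (3.38%) and 7 lower (2.95%), against 2.27% and 3.39% of all measured genes. The cause was not tested. Dim signals limit most values: 70.6% of the members lay above the floor on both arrays, against 89.5% of all measured genes.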
